A study of Mus musculus with 10 samples.

Results

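The mitochondrial solute carriers of the SLC25 family were examined in gastrocnemius muscle, a mixed muscle of the calf, of D257A and WT mice. The members were the probe sets of the Affymetrix Mouse Genome 430 2.0 array that name 1 gene only, with a symbol that starts with Slc25a. Slc25a20, the carnitine carrier, was left out by this rule. This gave 91 probe sets of 43 genes, among 45101 probe sets on the array and 18193 genes that a probe set names alone. The 5 D257A mice (2-17M, 2-21M, 2-25M, 2-27M and 2-30M) were PolgD257A/D257A, with both copies of the gene for the mtDNA polymerase γ carrying a change that removes proofreading, so that mtDNA mutations accumulate. The 5 WT mice (1-12M, 1-13M, 2-3M, 2-32M and 3-18M) were Polg+/+. All were labelled male and 13 months old, with 1 array per mouse, and came from a mixed 129Sv/ICR/B6 stock backcrossed into C57Bl/6J. The D257A allele is in the germline and so acts in every tissue. The number of each mouse starts with 2 in every D257A mouse and in 2 WT mice, and the labels do not say what the digit means.

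SLC25 proteins are nuclear-encoded and sit, with few exceptions, in the inner mitochondrial membrane, where each moves a small metabolite, a nucleotide or an ion between the cytosol and the matrix. In muscle the best known are the ADP/ATP carriers, which send ATP made by oxidative phosphorylation out to the contractile machinery in exchange for ADP, and the phosphate carrier, which supplies the phosphate for that ATP. Others carry the acids and amino acids of the malate-aspartate shuttle, bring in nucleotides and cofactors that mtDNA and matrix enzymes need, or import iron and glutathione.

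The carriers Slc25a11, Slc25a29, Slc25a30 and Slc25a33 were called lower in D257A muscle on the probe set that stands for the gene. Their promoter sequences are shown since they are the members on which the results turn. Each run is the 250 bases before a transcript start in RefSeq (GRCm38.p6), printed along the minus strand, on which all 4 genes lie, at chr11:70647040-70647289 for Slc25a11, chr12:108835877-108836126 for Slc25a29, chr14:75787038-75787287 for Slc25a30 and chr4:149774268-149774517 for Slc25a33. The window of Slc25a11 lies within the RefSeq span of the gene, since another of its transcript models starts further upstream. Capitals mark a GC box (GGGCGG, or CCGCCC on the other strand) and a CCAAT box (CCAAT, or ATTGG on the other strand).
Slc25a11: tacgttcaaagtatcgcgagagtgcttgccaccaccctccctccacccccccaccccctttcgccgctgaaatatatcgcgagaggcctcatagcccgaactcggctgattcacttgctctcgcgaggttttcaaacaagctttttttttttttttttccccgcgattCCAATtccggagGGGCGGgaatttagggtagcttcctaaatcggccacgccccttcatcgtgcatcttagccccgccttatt
Slc25a29: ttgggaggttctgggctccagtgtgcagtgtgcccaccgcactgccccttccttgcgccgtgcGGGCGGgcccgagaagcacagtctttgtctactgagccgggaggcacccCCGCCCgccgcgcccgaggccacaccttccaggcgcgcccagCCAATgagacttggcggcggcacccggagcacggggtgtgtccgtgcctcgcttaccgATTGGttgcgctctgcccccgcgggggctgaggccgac
Slc25a30: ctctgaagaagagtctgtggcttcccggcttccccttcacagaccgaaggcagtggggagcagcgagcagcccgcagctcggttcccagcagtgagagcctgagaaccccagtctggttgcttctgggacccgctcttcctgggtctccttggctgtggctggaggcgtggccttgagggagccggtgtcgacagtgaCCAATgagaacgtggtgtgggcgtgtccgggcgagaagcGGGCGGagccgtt
Slc25a33: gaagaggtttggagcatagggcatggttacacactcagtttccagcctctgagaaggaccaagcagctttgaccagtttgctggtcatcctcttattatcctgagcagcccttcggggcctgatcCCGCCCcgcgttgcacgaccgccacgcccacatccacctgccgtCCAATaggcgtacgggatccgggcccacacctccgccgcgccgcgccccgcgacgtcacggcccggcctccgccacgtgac
The 4 sequences shared a GC box and a CCAAT box, and their GC content was 53.2% for Slc25a11, 71.2% for Slc25a29, 64.4% for Slc25a30 and 64.4% for Slc25a33. A GC box was found in 31 of the 42 windows of 33 SLC25 genes (73.8%), against 10756 of the 32851 windows of all genes in the table (32.7%). A CCAAT box was found in 20 of the 42 SLC25 windows (47.6%), against 11120 of all windows (33.8%). These 2 motifs were chosen after the sequences had been seen. The letters AAGGTCA, a binding half-site of the estrogen-related receptors, were in none of the 4 sequences and in 1 of the 42 SLC25 windows, that of Slc25a34, against 4.08% of all windows. The letters GCATGCGC, the core of the NRF1 site, were in none of the 4 either, in 2 of the 42 SLC25 windows, and in 2.26% of all windows. All 4 motifs were searched on both strands, and none of them contains another. A match is a description of the letters only.

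Values below are signals, scaled so that each array has the same trimmed mean of 500. Differences are log2 fold changes, D257A minus WT, from limma over the 22518 probe sets brighter than the median, and a probe set was called when its Benjamini-Hochberg adjusted p was under 0.05. Of the 91 SLC25 probe sets, 67 were tested, and they cover 35 genes. The other 24 were too dim. The 8 genes left without a tested probe set were Slc25a2, Slc25a13, Slc25a14, Slc25a18, Slc25a31, Slc25a41, Slc25a48 and Slc25a54. A gene with several probe sets is represented by its brightest one.

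Of the 67 tested SLC25 probe sets, 11 were called lower in D257A mice (16.4%) and 0 were called higher, while over all tested probe sets 3.74% were called lower and 3.64% higher. At an unadjusted p under 0.05, limma gave 17 SLC25 probe sets lower and 1 higher, against 12.9% of all tested probe sets lower and 10.7% higher. The 11 probe sets are not 11 separate genes, since 5 of them belong to Slc25a29 and 3 to Slc25a30. Counted by gene, 4 of 35 were called lower (11.4%) and 0 higher, against 3.52% lower and 3.71% higher of the 11216 genes with a tested probe set. In 5 genes every D257A mouse was below every WT mouse, and in 0 genes was every D257A mouse above, against 3.47% and 3.93% of all genes. The median log2 fold change of the 35 genes was -0.12, compared with -0.01 over all genes, and 23 of the 35 were negative. The 31 genes that were not called ranged from -0.80 to 0.38. In whole muscle, fewer cells of a type and less RNA per cell cannot be told apart.

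1 WT library bears on these counts. WT mouse 1-13M had the lowest array weight of the 10 mice, 0.28, and was the lowest WT mouse in 13 and the highest in 14 of the 35 genes. Without it 18 SLC25 probe sets were called lower (26.9%, against 7.9% of all probe sets) and 1 higher, and all 11 calls made with it remained. Among the mice numbered 2 alone, 5 D257A and 2 WT, 13 SLC25 probe sets were called lower (19.4%, against 3.81% of all). With the first digit as a block the count was 8 (11.9%, against 1.2% of all). The other digits are held by WT mice only, so the blocked fit takes its fold changes from the mice numbered 2 as well. These settings are therefore not separate checks on the size of a change. Before scaling, the trimmed means of the arrays were 93.4 to 106.1 in D257A mice and 94.5 to 128.7 in WT mice.

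**Figure D1:**
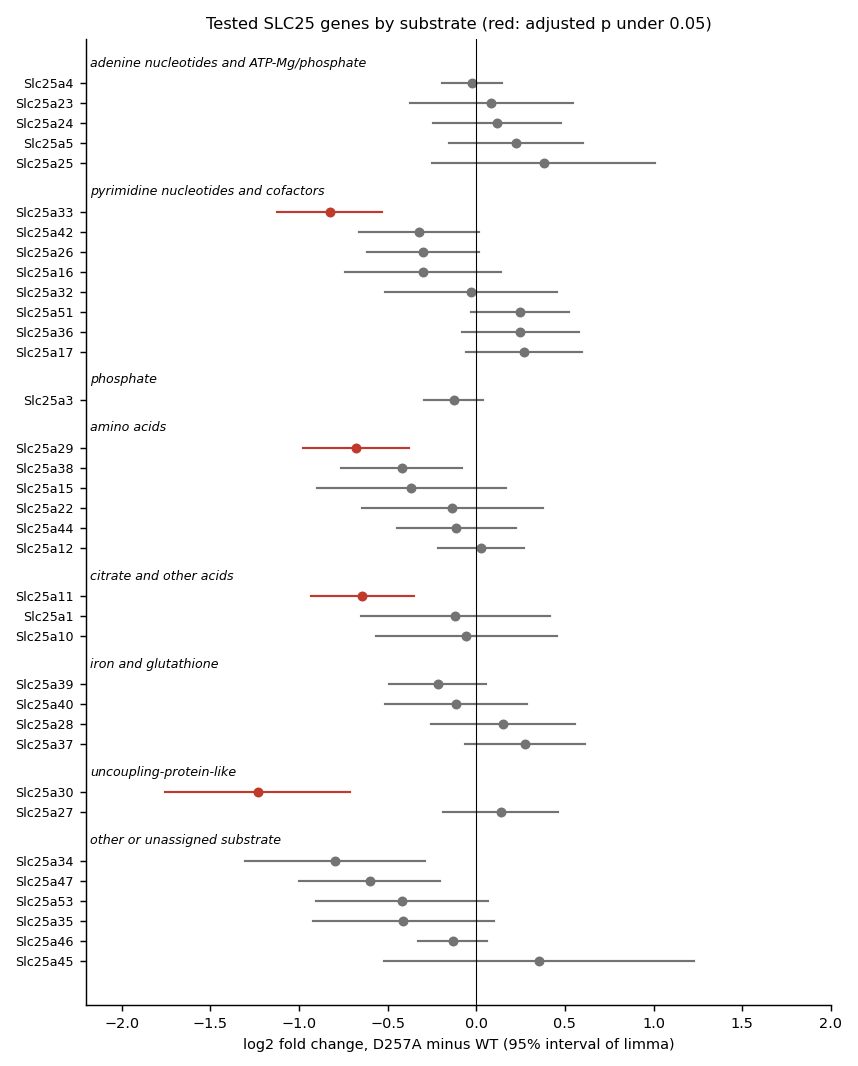
Log2 fold change (D257A minus WT, horizontal axis) of the brightest tested probe set of the 35 SLC25 genes, grouped by the substrate of the carrier. Points are limma estimates, lines are 95% intervals and red marks an adjusted p under 0.05, which Slc25a11, Slc25a29, Slc25a30 and Slc25a33 reached, all to the left of 0.

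Of the 8 tested carriers of pyrimidine nucleotides and cofactors 1 was lower and 0 were higher, with a median log2 fold change of -0.16, and of the 5 tested carriers of adenine nucleotides 0 were called, with a median of 0.12. Slc25a33, a carrier of pyrimidine nucleotides, was lower in D257A muscle with no overlap. Its signal was 862, 893, 945, 786 and 1182 in D257A mice, against 1616, 2041, 1403, 1647 and 1558 in WT mice. The means were 934 ± 150 in D257A muscle and 1653 ± 236 in WT muscle (± SD, n = 5 per genotype). The log2 fold change was -0.83 (SE 0.14, limma adjusted p = 0.0036), that is, 1.77-fold lower. The call was lost where the first digit of the mouse numbers was fitted as a block, with an adjusted p of 0.060.

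Slc25a36, the other pyrimidine nucleotide carrier, was not called on any of its 3 probe sets, and all 3 had positive estimates. On the brightest the signal was 2106, 2263, 1977, 1476 and 2167 in D257A mice, against 1542, 2253, 1551, 1373 and 1717 in WT mice, with overlap (0.25, SE 0.15, limma adjusted p = 0.35). On a dimmer probe set, 1438520_at, every D257A mouse (427 to 496) was above every WT mouse (279 to 401). That difference was 0.48 (SE 0.14, limma adjusted p = 0.053), just short of the threshold, and it was picked out after its values were seen. It was called higher after quantile normalization or median centring, with array weights, with the methods' t-test on linear signals and without WT mouse 3-18M. The difference between the 2 carriers in their response was not tested.

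Neither ADP/ATP carrier was called. Slc25a4, the muscle form (ANT1), had a signal of 50687, 49654, 48359, 50961 and 51745 in D257A mice, against 57757, 43179, 51224, 48604 and 56190 in WT mice. Its difference was -0.02 (SE 0.08, 95% interval from -0.20 to 0.15, limma adjusted p = 0.89). All D257A mice lay inside the WT range, and the sign of so small an estimate changed in 5 of the 22 alternative settings. The 4 probe sets of Slc25a4 ranged from -0.32 to -0.02, with 0 called. Slc25a5, the more widely expressed form (ANT2), had a signal of 3854, 3068, 3107, 2578 and 4940 in D257A mice, against 2655, 4071, 2543, 2998 and 2617 in WT mice. Its difference was 0.22 (SE 0.18, 95% interval from -0.15 to 0.60, limma adjusted p = 0.48). Its 8 probe sets ranged from -0.01 to 0.35, with 0 called and 1 negative.

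Within each mouse, the log2 signal of Slc25a4 minus that of Slc25a5 was 3.88 ± 0.34 in D257A muscle and 4.13 ± 0.44 in WT muscle (± SD, n = 5 per genotype). The difference of -0.25 did not exceed the spread between mice (2-sided exact permutation test over 252 assignments, p = 0.29, adjusted p = 0.59 over the 2 pairs compared). In this design the smallest p possible is 0.0079. Without WT mouse 1-13M, in which the value was 3.41 against 4.02 to 4.44 in the other WT mice, the difference was -0.43 (exact p = 0.040). That p is not adjusted for the 2 pairs. With any other single mouse left out, the exact p was 0.18 to 0.60.

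The 3 tested carriers that exchange ATP-Mg for phosphate under the control of calcium, Slc25a23, Slc25a24 and Slc25a25, were not called. The last of these, named after its values were seen, had the most uneven WT values of the group. Its signal was 775 to 973 in D257A mice, and 331 to 1547 in WT mice, and its difference was 0.38 (SE 0.29, limma adjusted p = 0.47). The remaining pyrimidine and cofactor carriers were not called. The brightest probe set among them belonged to Slc25a51, the NAD carrier, at 3262 to 4492 in D257A mice and 2489 to 3641 in WT mice (0.25, SE 0.13, limma adjusted p = 0.27). D257A mouse 2-17M held the highest of these values by a wide gap, and the second probe set of the gene was at -0.12. In the 5 others of this group the estimates lay between -0.32 (Slc25a42, the coenzyme A carrier) and 0.27 (Slc25a17, a carrier of peroxisomes).

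The phosphate carrier Slc25a3 was not called. Its signal was 37064, 38763, 36780, 38298 and 40345 in D257A mice, against 46115, 36464, 41548, 39227 and 46197 in WT mice. The D257A mice spanned a narrow range within the lower part of the WT range, and the difference was -0.13 (SE 0.08, 95% interval from -0.29 to 0.04, limma adjusted p = 0.35). After quantile normalization it was -0.20 with an adjusted p of 0.042, and after median centring 0.007, so that its call and its sign depend on the scaling.

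**Figure D2:**
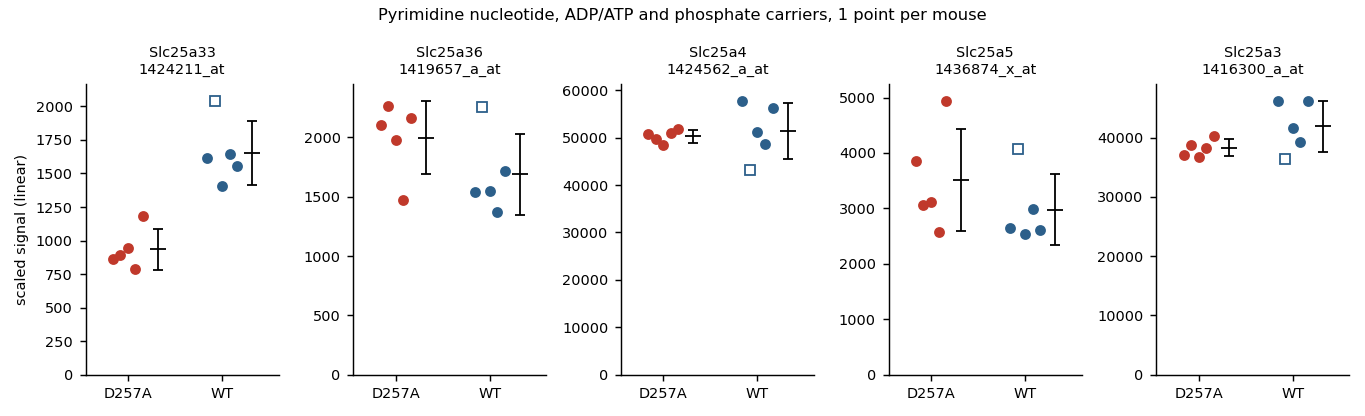
Scaled signal (linear axis from 0) of the pyrimidine nucleotide carriers Slc25a33 and Slc25a36, the ADP/ATP carriers Slc25a4 and Slc25a5 and the phosphate carrier Slc25a3, with 1 point per mouse and D257A left of WT. Bars are the mean and SD of 5 mice with WT mouse 1-13M drawn as an open square. The genotypes are apart in Slc25a33 and overlap in the other panels.

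Among the amino acid carriers, Slc25a29 was lower in D257A muscle on every probe set. Slc25a29 carries basic amino acids such as arginine, lysine and ornithine, as known from the human protein. On its brightest probe set, 1438187_at, the signal was 355, 429, 351, 444 and 374 in D257A mice, against 681, 572, 723, 656 and 506 in WT mice. The genotypes did not overlap, and the means were 391 ± 43.2 in D257A muscle and 628 ± 87.5 in WT muscle (± SD, n = 5 per genotype). The log2 fold change was -0.68 (SE 0.14, limma adjusted p = 0.011). It was called in all of the 22 alternative settings.

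The 5 probe sets of Slc25a29 differed in size but not in direction. In 4 of them the log2 fold changes ran from -0.68 to -1.26 with adjusted p of 0.0043 to 0.011, and in 3 of these 4 the genotypes did not overlap. The fifth, 1423981_x_at, passed the filter only through its WT signals, since its mean log2 signal in D257A mice, 5.79, lay below the limit of 6.26. It had a signal of 110, 131, 29.1, 38.9 and 32.1 in D257A mice, against 291, 309, 394, 470 and 232 in WT mice. No size of change is read from it, although it is 1 of the 11 calls, and an x in the name of a probe set marks probes that can also bind other transcripts. The middle one, 1423980_at, fell by 1.01 on the log2 scale, with a signal of 132 to 253 in D257A mice and 343 to 496 in WT mice. Its call was lost with the first digit as a block (adjusted p = 0.083), and that of 1423979_a_at with the methods' t-test on linear signals (adjusted p = 0.061).

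Slc25a47 lies next to Slc25a29 on chromosome 12 in RefSeq, with a microRNA gene between them, and its substrate is among those grouped here as unassigned. It was named after its values were seen. Its signal was 167, 195, 130, 169 and 130 in D257A mice, against 323, 220, 234, 226 and 200 in WT mice. Each D257A mouse was below each WT mouse, but the test did not call it (-0.60, SE 0.18, limma adjusted p = 0.064). It was called lower with array weights and without WT mouse 1-13M.

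Slc25a12, the aspartate/glutamate carrier of the malate-aspartate shuttle in muscle, was not called. Its signal was 19074, 18078, 15314, 17205 and 16115 in D257A mice, against 19271, 12692, 17529, 16736 and 18675 in WT mice (0.03, SE 0.11, limma adjusted p = 0.92). Its 2 dimmer probe sets were at -0.26 and -0.41 and were not called, but without WT mouse 1-13M the first of them, 1436440_at, was called lower. The second, 1444489_at, passed the filter only through its WT signals. Its mean log2 signal was 6.09 in D257A mice, below the limit of 6.26. Slc25a13, the isoform known from liver, was too dim to test, so that the planned difference between the 2 isoforms was not computed. The 4 other tested amino acid carriers, for ornithine (Slc25a15), glutamate (Slc25a22), glycine (Slc25a38) and branched-chain amino acids (Slc25a44), were not called and had estimates of -0.42 to -0.11. Slc25a15 was called lower with array weights, in the mice numbered 2 and without WT mouse 1-13M, and Slc25a38 with array weights. The median of the 6 tested amino acid carriers was -0.25.

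The oxoglutarate/malate carrier Slc25a11, which moves malate into the matrix in the malate-aspartate shuttle, was lower in D257A muscle. Its 1 probe set gave 3829, 5547, 4999, 5402 and 4234 in D257A mice, against 8874, 6227, 7969, 8131 and 6300 in WT mice. No D257A mouse reached the lowest WT mouse, and the means were 4802 ± 746 in D257A muscle and 7500.1 ± 1180 in WT muscle (± SD, n = 5 per genotype). The log2 fold change was -0.64 (SE 0.13, limma adjusted p = 0.012), or 1.56-fold lower. The methods' t-test did not call it after adjustment, on either the log2 or the linear scale. The citrate carrier Slc25a1 and the dicarboxylate carrier Slc25a10 were not called, at -0.12 (SE 0.25) and -0.06 (SE 0.24).

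Slc25a30 changed the most among the genes as represented by their brightest probe set. It encodes the kidney mitochondrial carrier protein KMCP1, close in sequence to the uncoupling proteins. Its signal was 603, 531, 286, 352 and 575 in D257A mice, against 878, 681, 1424, 1234 and 1267 in WT mice. The groups did not overlap, though the highest D257A mouse was near the lowest WT mouse, 1-13M. The log2 fold change was -1.23 (SE 0.24, limma adjusted p = 0.0085), or 2.35-fold lower. The other 2 tested probe sets gave -1.40 and -1.24 with adjusted p of 0.0014 and 0.017, again without overlap. On 1420835_at the signal was 298, 280, 221, 186 and 245 in D257A mice, against 522, 443, 885, 734 and 706 in WT mice. This probe set was called in all 21 alternative settings in which it was tested, while the brightest one lost its call under both of the methods' t-tests. Its remaining 2 probe sets were too dim to test. Slc25a27, the other tested member of the group, a carrier known from brain, was not called (0.14, SE 0.15).

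**Figure D3:**
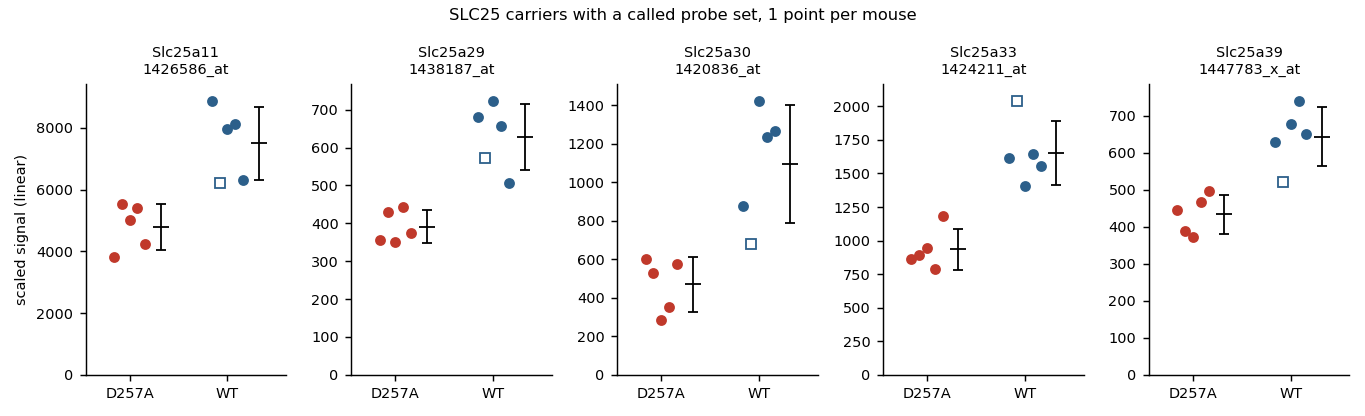
Scaled signal (linear axis from 0) of the 5 SLC25 genes with a called probe set, each on its brightest called probe set, with 1 point per mouse and D257A left of WT. Bars are the mean and SD of 5 mice with WT mouse 1-13M drawn as an open square. In each panel every D257A mouse is below every WT mouse.

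Slc25a39, which imports glutathione into mitochondria, was called on 1 of its 4 tested probe sets. On that one, 1447783_x_at, the signal was 446, 388, 372, 466 and 497 in D257A mice, against 628, 522, 677, 740 and 651 in WT mice. The difference was -0.57 (SE 0.14, limma adjusted p = 0.024), and the call was lost in 8 of the 22 alternative settings. These were median centring, the first digit as a block, and the removal of D257A mouse 2-17M, 2-21M or 2-25M or of WT mouse 1-12M, 2-3M or 2-32M. On the brightest probe set the signal was 6295, 5489, 5998, 5520 and 5158 in D257A mice, against 7212, 4733, 7036, 6781 and 7720 in WT mice (-0.22, SE 0.13, limma adjusted p = 0.32). All D257A mice there were below 4 of the 5 WT mice and above WT mouse 1-13M. Without that mouse the brightest probe set was called as well. All 4 estimates were negative.

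Both mitoferrins, which bring iron into mitochondria, were not called. Slc25a37 (mitoferrin 1) had a signal of 1036, 706, 674, 747 and 737 in D257A mice, against 753, 679, 704, 603 and 484 in WT mice (0.27, SE 0.16, limma adjusted p = 0.32). Slc25a28 (mitoferrin 2) had 1891, 1997, 2079, 1973 and 2269 in D257A mice, against 1628, 3275, 1737, 1618 and 1392 in WT mice (0.15, SE 0.19, limma adjusted p = 0.68). In Slc25a28 all D257A mice were above 4 of the 5 WT mice, and WT mouse 1-13M was far above all others. Without it Slc25a28 was called higher, at 0.36 with an adjusted p of 0.032. The within-mouse difference of Slc25a37 minus Slc25a28 was -1.40 ± 0.31 in D257A muscle and -1.53 ± 0.44 in WT muscle (± SD, n = 5 per genotype), which did not differ beyond the spread (2-sided exact permutation test, p = 0.66, adjusted p = 0.66). Slc25a40, a close relative of Slc25a39, was at -0.12 (SE 0.19).

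The carriers grouped as other or unassigned were not called, and their median of -0.42 was from 6 genes of uneven estimates. Slc25a46, an outer membrane member with a role in mitochondrial shape, gave a signal of 3762 to 4410 in D257A mice and 3970 to 4659 in WT mice (-0.13, SE 0.09, limma adjusted p = 0.41). Slc25a34, named after its values were seen, had a signal of 616, 677, 1182, 474 and 808 in D257A mice, against 1284, 1884, 1192, 1204 and 857 in WT mice. The groups overlapped in 1 D257A mouse, 2-25M, and the difference was -0.80 (SE 0.24, limma adjusted p = 0.057). It was called when the 11259 brightest probe sets alone were tested, with array weights, and without D257A mouse 2-25M or WT mouse 3-18M.

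**Figure D4:**
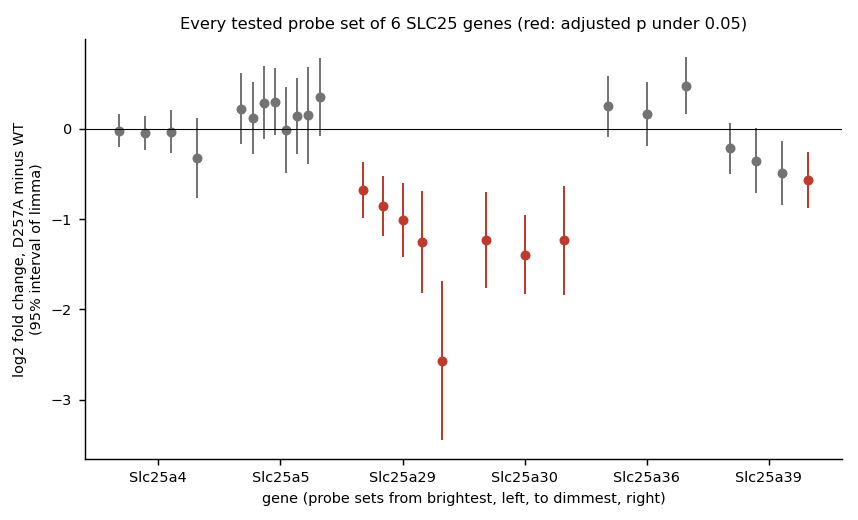
Log2 fold change (D257A minus WT, vertical axis) with 95% interval of every tested probe set of Slc25a4, Slc25a5, Slc25a29, Slc25a30, Slc25a36 and Slc25a39, ordered from the brightest to the dimmest within each gene. Red marks an adjusted p under 0.05, reached by 5 of 5 probe sets of Slc25a29, 3 of 3 of Slc25a30 and 1 of 4 of Slc25a39.

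Other genes were listed alongside these carriers, most of them genes that work with them. The lists also hold 6 members of the carrier family that have other names or were left out by the rule. These are Ucp1, Ucp2, Ucp3, Mtch1, Mtch2 and Slc25a20. Of 44 listed genes, 38 had a probe set that names them alone and 35 were tested. Of these, 7 were lower in D257A mice and 1 was higher, with a median of -0.13. Over all tested genes 3.52% were lower and 3.71% higher, with a median of -0.01. The lists were chosen with earlier results of these data known, and the study itself reports a change of Ckmt2, 1 of the 7. The counts are therefore a description, and their difference from the array was not tested. 1 of the 7 is Slc25a20, which carries acylcarnitines for fatty acid oxidation (3416 ± 334 in D257A muscle and 5628 ± 555 in WT muscle, ± SD, n = 5 per genotype, -0.72, limma adjusted p = 0.0020). Without Slc25a20, 6 of 34 tested genes were lower. The family members Ucp3 (-0.47), Mtch1 (-0.25) and Mtch2 (0.03) were not called, and Ucp1 was too dim to test.

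Both tested partners of the ADP/ATP carriers were lower. Ckmt2, the mitochondrial creatine kinase of muscle, which turns exported ATP into phosphocreatine, had 22131, 25102, 24808, 25605 and 26794 in D257A mice, against 46881, 31510, 39744, 38684 and 45959 in WT mice (-0.69, SE 0.10, limma adjusted p = 0.0021). Ppif, which encodes cyclophilin D of the permeability transition pore, had 527, 835, 627, 646 and 640 in D257A mice, against 1275, 770, 1178, 1239 and 1207 in WT mice (-0.78, SE 0.16, limma adjusted p = 0.012). Only WT mouse 1-13M overlapped with the D257A mice in Ppif, and its call was lost with the first digit as a block (adjusted p = 0.052).

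Of the 7 tested enzymes of the citrate, malate and aspartate routes, 2 were called lower and 0 higher, against 3.52% and 3.71% of all tested genes. Both are cytosolic enzymes of the malate-aspartate shuttle. Got1, the cytosolic aspartate aminotransferase, averaged 11239 ± 1443 in D257A muscle and 16549 ± 2184 in WT muscle (± SD, n = 5 per genotype, -0.56, limma adjusted p = 0.010), and its call was lost with the first digit as a block (adjusted p = 0.053). Mdh1, the cytosolic malate dehydrogenase, had 18663, 16097, 25250, 24989 and 22772 in D257A mice, against 34552, 24362, 29540, 28394 and 38309 in WT mice (-0.53, SE 0.14, limma adjusted p = 0.038). Its call was lost in 14 of the 22 alternative settings. The other 5 enzymes of this list were not called. Among them the matrix forms Got2 (-0.19, SE 0.08, limma adjusted p = 0.15) and Mdh2 (-0.20, SE 0.09, limma adjusted p = 0.19) had negative estimates as well. A difference between the cytosolic and the matrix forms was not tested. Mpc1, a subunit of the pyruvate carrier, was lower, at 18563 to 19511 in D257A mice and 21074 to 28046 in WT mice (-0.39, SE 0.08, limma adjusted p = 0.014). Its call was lost in 4 of the 22 alternative settings, with adjusted p of 0.061 without the filter, 0.067 without the variance trend, 0.087 with the block and 0.11 after median centring.

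Oat, the matrix enzyme that uses ornithine, was the 1 listed gene that was higher. Its signal was 20733, 19247, 17209, 15174 and 18069 in D257A mice, against 8497, 13186, 9315, 8975 and 9452 in WT mice. The difference was 0.88 (SE 0.12, limma adjusted p = 0.0012), with no overlap, and it was called in all 22 alternative settings. Alas1, the first enzyme of haem synthesis, was lower, at 2351 to 3368 in D257A mice and 3730 to 4703 in WT mice (-0.59, SE 0.12, limma adjusted p = 0.0077). Alas2, listed with it and also an erythroid marker, had a positive estimate and was not called (1.05, SE 0.32, limma adjusted p = 0.060). Its signal was 206 to 608 in D257A mice and 110 to 294 in WT mice, with overlap. Of the 3 outer membrane porins, the 9 factors that import carriers and the 4 tested parts of the calcium uniporter, 0 were called by limma.

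**Figure D5:**
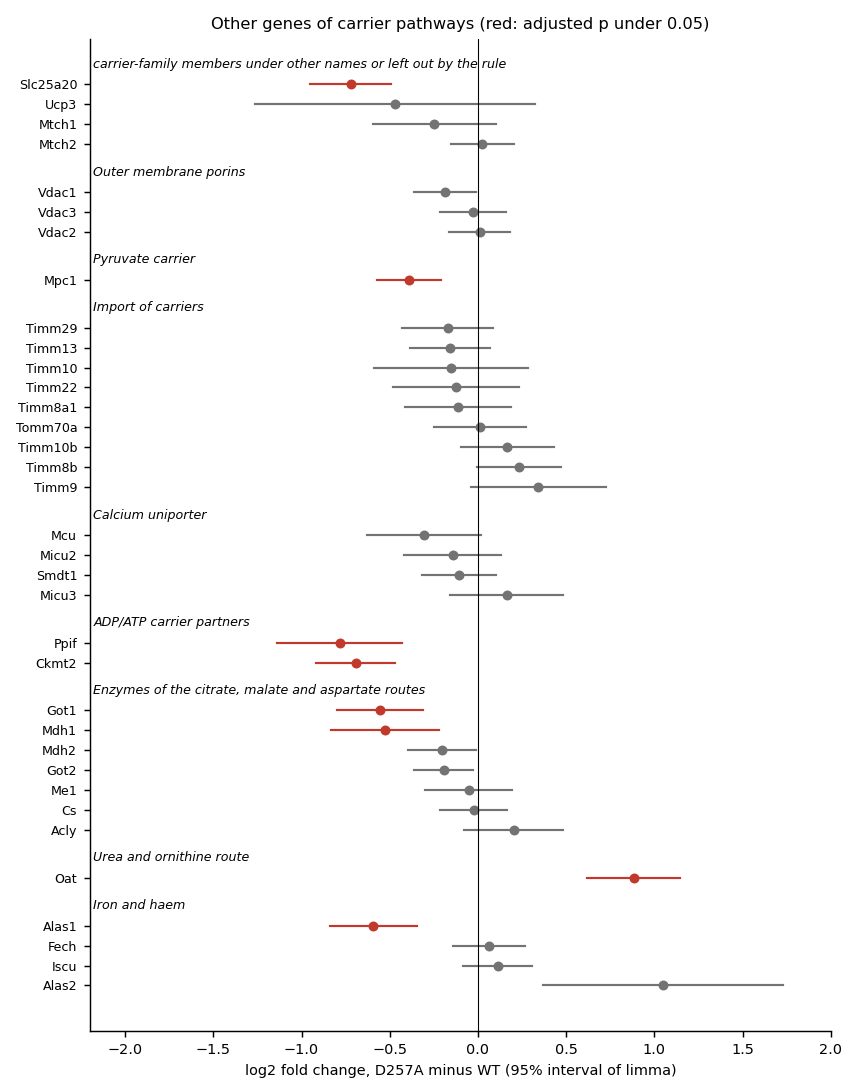
Log2 fold change (D257A minus WT, horizontal axis) with 95% interval of 35 tested genes listed beside the SLC25 members, by list. They are genes that work with the carriers, and family members that have other names or were left out by the rule. Red marks an adjusted p under 0.05, with 7 genes left of 0 and Oat right of it.

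Markers of the cell types in the muscle were read beside these results. The 8 skeletal muscle markers were all tested and 0 were called, with summed signals of 415600 to 456500 in D257A mice and 369600 to 478200 in WT mice. Of 7 tested slow fibre markers 0 were called, with a median log2 fold change of 0.33. The slow fibre sums were 82390 to 125900 in D257A mice and 62140 to 110500 in WT mice. Of the 6 fast fibre markers 0 were called, with a median of 0.05. Their sums were 330600 to 355800 in D257A mice and 287200 to 375300 in WT mice. Of 6 macrophage markers, 2 were higher (Lgals3 and Mrc1), with sums of 5183 to 7114 in D257A mice and 4246 to 4743 in WT mice. Of 5 fibroblast markers, 3 collagens (Col1a1, Col1a2 and Col3a1) were called lower, while Dcn (-0.08) and Pdgfra (-0.04) were not called. Col1a1 passed the filter only through its WT signals, since its mean log2 signal in D257A mice, 6.01, lay below the limit of 6.26. The fibroblast sums, most of which come from Dcn, were 19430 to 22700 in D257A mice and 19910 to 31560 in WT mice. Of 4 adipocyte markers 1, Retn, was higher, with sums of 2012 to 4786 in D257A mice and 886 to 5151 in WT mice. Of the erythroid list, 4 genes had a probe set and 1 was bright enough to test, with sums of 257.2 to 870.0 in D257A mice and 173 to 390 in WT mice. Of 5 endothelial markers 0 were called, with sums of 2465 to 3166 in D257A mice and 2647 to 3597 in WT mice. The part of these cell types in the SLC25 differences was not tested. A line of the extraction protocol names the cochlea as the source of the RNA, while the tissue label is gastrocnemius. Of 10 cochlea markers 3 were above the filter, 0 were called, and the 7 below it include Otos, Tecta and Slc26a5.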

How the data were processed

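RNA of 10 gastrocnemius samples was hybridized to Affymetrix Mouse Genome 430 2.0 arrays, 1 per mouse. The authors deposited linear signal intensity values, 1 per probe set and mouse, made with GCOS 1.3. The stated scaling to 500 was not present in the deposited columns, so each array was multiplied to give a mean of 500 after the highest and lowest 2% of its values were cut, and log2 was taken. No detection calls or depths were used, and the number of arrays limits the precision. The labels give male mice only, while the study's methods name both sexes.

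The 64 control probe sets were set aside, and 22518 of 45037 others, those above the median mean log2 signal of 6.26, were tested. Genotypes were compared with limma 3.58.1 (lmFit, eBayes with trend) and Benjamini-Hochberg adjustment over all tested probe sets, with every mouse as a sample. Standard errors and 95% intervals are those of the fit. Within-mouse differences were tested by exact permutation over all assignments (Python 3.11.15, NumPy 2.4.6). Genes were named from the platform annotation, in which 34945 probe sets name 1 gene, 932 several and 9160 none. RefSeq (GRCm38.p6) matched 34741 of the 34945 and changed no symbol. 1 probe set that names an SLC25 gene and another gene was left out. Promoters are from the same RefSeq release, in which 33 of the 43 genes matched.

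Named were every called SLC25 probe set, the brightest gene of each substrate group, the genes of the within-mouse pairs, genes with some probe sets called, and called genes of the carrier pathways. The members, substrate groups and lists were chosen with earlier results of these data known. The fit was first run on simulated signals with known changes. Alternatives were 3 other scalings, 2 other filters, 2 variance models and an offset of 32. Others were the methods' t-test on log2 and linear signals, the mice numbered 2, the leading digit as a block, and each mouse left out. That t-test is the general test of the study's methods, while the study names GCOS and SAM for comparing its arrays.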

Additional observations from a re-analysis of the deposited data

Results flagged for a closer look

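Of 88 groups of 5 mice checked, 9 held a mouse apart from the other 4, with a gap of over 0.71 of the whole range. Chance alone flags about 1 in 20 groups. WT mouse 1-13M was that mouse in 5 of the 9. Its signal was 410 in Slc25a15 (1011 to 1267 in the other WT mice), 321 in Slc25a24 (483 to 559), 3275 in Slc25a28 (1392 to 1737), 488 in Slc25a32 (213 to 263) and 4733 in Slc25a39 (6781 to 7720). WT mouse 2-3M had 3970 in Slc25a46, where the other WT mice had 4506 to 4659. D257A mouse 2-17M had 1036 in Slc25a37, where the other D257A mice had 674 to 747, and 4492 in Slc25a51, where they had 3262 to 3525. D257A mouse 2-21M had 93.2 in Slc25a23, where the other D257A mice had 131 to 144.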

How the results depend on the processing

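Across the 22 alternatives to the 11 SLC25 probe sets called lower, the count was 7 among the 11259 brightest probe sets of the array, where 40 were tested, 19 with array weights and 7 with the methods' t-test on linear signals. Over all probe sets the shares called lower in these settings were 6.08%, 9.37% and 2.07%, against 3.74%. Leaving out 1 mouse at a time gave 10 to 18 probe sets lower and 0 to 1 higher, the highest count lower being without WT mouse 1-13M, where 7.9% of all probe sets were called lower. Of the probe sets called higher, 1 was seen after quantile normalization, median centring, array weights or the linear t-test. The 4 genes called lower became 10 with array weights and 2 with either t-test, and 4 to 8 when a mouse was left out, with 0 to 1 genes higher. Of all genes, 9.3% were called lower with array weights, 2.09% and 1.96% with the t-test on log2 and linear signals, and 8.33% without WT mouse 1-13M, against 3.52%. The causes of these changes in count were not tested.

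Median centring moved the median of all probe sets to 0.10, against -0.03, and gave 418 lower and 1599 higher over the array, where the scaling used gave 843 and 819 and no scaling 856 and 356. Slc25a4 then came to 0.11 and Slc25a3 to 0.007. Slc25a4 was at 0.011 in the mice numbered 2 and with the leading digit as a block, and between -0.085 and 0.020 with a mouse left out. Slc25a12 was at -0.054 after quantile normalization, -0.049 without scaling, -0.053 with array weights, -0.002 in the mice numbered 2 and with the block, and between -0.076 and 0.075 with a mouse left out. The within-mouse difference of Slc25a37 and Slc25a28 was -0.04 in the mice numbered 2, and -0.063 to 0.23 with a mouse left out, negative without D257A mouse 2-17M (-0.011) or WT mouse 1-13M (-0.063). That of Slc25a4 and Slc25a5 was -0.43 to -0.13 with a mouse left out. The pair Slc25a12 and Slc25a13 was not run, since Slc25a13 was too dim. No paired analysis was possible because the labels give no pairing of D257A mice with WT mice.

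With 5 mice per genotype a missing call does not show equal levels. Signals of dim probe sets hold background, and no detection values were used.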
